A study of Mus musculus with 25 samples.

Results

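Spinal cord astrocytes that lack Smarca4 were compared with wild-type (WT) astrocytes in mice that had been neither injured nor given a challenge. The members are the uninjured libraries of both genotypes, taken by their labels: 3 of Smarca4cKO mice and 4 of WT mice, 7 of the 25 libraries of the series, 1 animal each. Smarca4cKO mice had the genotype GfapCre:Ribotagfl/fl:Smarca4fl/fl on a strain given as C57BL6;129S2, and WT mice had GfapCre:Ribotagfl/fll on C57BL6. The strain label therefore differs wherever the genotype does, and genotype and strain cannot be told apart in any value below. The animal numbers in the library titles also fall in separate ranges, lower in WT than in Smarca4cKO. The labels do not say what these numbers stand for, and they cannot be told apart from genotype either. All 7 animals carried the Gfap-Cre transgene and the RiboTag allele, which puts a haemagglutinin tag on the ribosomes of cells with Cre activity. Tagged ribosomes were precipitated from thoracic cord and the messenger RNA on them was sequenced, so a value is the amount of ribosome-associated RNA. In Smarca4cKO mice the same Cre deletes Smarca4 and sets the tag, so any cell type with Gfap-Cre activity is included. Where LPS animals are used as a second measurement, they had received 5 mg/kg lipopolysaccharide 24 h earlier and form groups of 3 Smarca4cKO and 4 WT mice. Sex and age are not given in the labels used here.

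Smarca4, also called Brg1, is the ATPase of the BAF (mammalian SWI/SNF) chromatin remodelling complex, which uses ATP to slide or evict nucleosomes and so opens promoters and enhancers to transcription factors. A complex holds a single ATPase, either Smarca4 or its paralog Smarca2 (Brm), together with core subunits of the Smarcc, Smarcb and Smarcd families. Resting astrocytes take up glutamate and potassium, supply neighbouring cells with lipid on Apoe particles and run a high rate of glycolysis, and the genes for these tasks are among their most abundant transcripts.

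The libraries held 69110662 to 84284681 counts in Smarca4cKO and 52253420 to 91555120 in WT over the 9948 genes listed for both genotypes. The Smarca4cKO libraries stood apart in their low end. In them 12.1% to 19.8% of genes had 10 counts or fewer, against 1.23% to 6.44% in WT, at a similar total. Such counts were often all or none: 2471 genes had at most 10 counts in 1 Smarca4cKO library and at least 1000 in another, against 422 genes in WT. Mcm4, a DNA replication licensing factor gene, is an example with 1, 587 and 1571 counts in the 3 Smarca4cKO libraries and 2021, 3977, 1798 and 3245 in WT. The correlation of log CPM between replicates was 0.597 to 0.645 over the 3 pairs of Smarca4cKO libraries and 0.779 to 0.888 over the 6 pairs of WT libraries. Over the 12 pairs of a Smarca4cKO and a WT library it was 0.646 to 0.749. Each Smarca4cKO library was thus closer to every WT library than to its own replicates. Over genes with at least 10 counts in every library, the ranges were 0.695 to 0.76, 0.846 to 0.921 and 0.725 to 0.824 in that order. CPM here is counts per 1e6 counts after TMM scaling of the 7 libraries together. The cause of the all-or-none counts was not tested. The labels do not say that the animals were separate litters or preparations, so p-values measure the spread between these libraries.

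**Figure D1:**
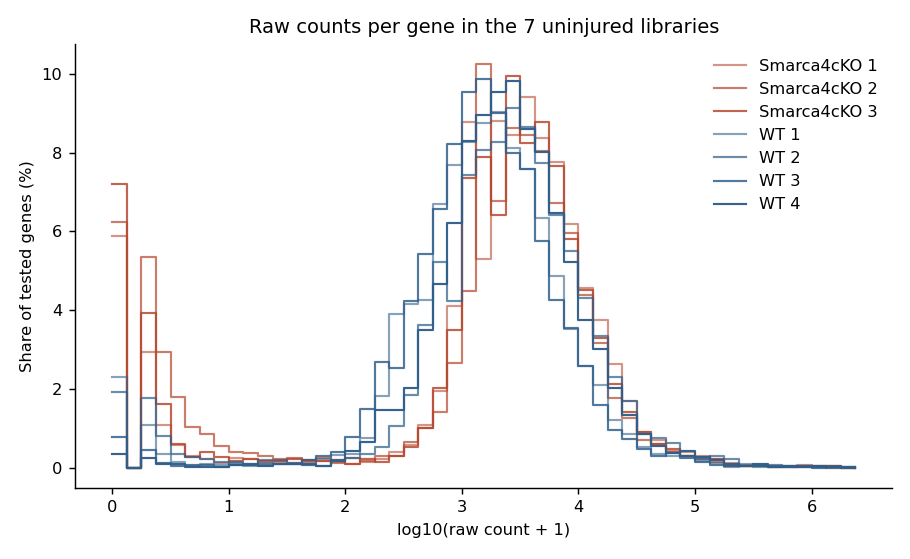
Distribution of raw counts per tested gene in each library, as log10(count + 1) on the horizontal axis and the share of tested genes in percent on the vertical axis, with Smarca4cKO libraries in red and WT libraries in blue. The 3 Smarca4cKO libraries have a second peak at the left edge. Over all 9948 genes listed for both genotypes, 12.1% to 19.8% had 10 counts or fewer in these libraries.

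The targeted gene was lower in every Smarca4cKO library. Smarca4 (chromosome 9, 21616106 to 21704230, GRCm38) had 1132, 1592 and 1799 counts in Smarca4cKO and 3384, 6129, 4404 and 7009 in WT. At 18.5 ± 5.30 CPM in Smarca4cKO and 76.7 ± 12.4 CPM in WT (SD, n = 3 and 4), the highest Smarca4cKO library was at 21.6 CPM and the lowest WT library at 61.4 CPM. The log2 fold change was -2.05 ± 0.41 (SE), with an adjusted p of 0.146 in the edgeR test over all genes and 0.0561 over the genes detected in every library. A count per gene sums all exons, so the remaining reads cannot be assigned to deleted or to intact copies. Smarca2, the other ATPase, was at 150.3, 206 and 180.3 CPM in Smarca4cKO and 110.5, 152, 113 and 118 CPM in WT, and the groups overlapped by 1 library (log2 0.50 ± 0.25, edgeR adjusted p = 0.436 over the detected genes).

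Of 25 BAF genes listed for both genotypes, Smarca4 included, 20 were detected in every library, with 0 called by edgeR in either direction and a median log2 of 0.14 against 0.04 over all detected genes. At an unadjusted p under 0.05 there were 1 higher and 2 lower, and DESeq2 over all genes called 0 higher and 2 lower, Smarca4 and Actb. The groups did not overlap for 5% of the 20 in the higher and 10% in the lower direction, near the 7.38% and 6.4% of all detected genes. Besides Smarca4, these were Actb, cytoskeletal actin and a subunit of the complex, which was lower (log2 -0.70 ± 0.17, edgeR adjusted p = 0.103), and for the actin-related subunit gene Actl6a, which was higher (0.88 ± 0.54, adjusted p = 0.529). The subunit genes Smarcc1, Smarcc2, Smarcd1 and Smarce1 lay between log2 -0.21 and 0.15. Smarcb1, also of the core families, was at 148, 99.7 and 16.7 CPM in Smarca4cKO and 59.2 to 151 CPM in WT. Smarcd3 was at 33.4, 16.2 and 72.8 CPM in Smarca4cKO and 15.5 to 49 CPM in WT. Both overlapped, and their values are on the scale of all 7 groups used further below. Other subunits show the all-or-none pattern: Arid2 had 2242, 1 and 1279 counts in Smarca4cKO, Smarcd2 had 4, 1700 and 2460, and Bcl7a had 2376, 2543 and 2.

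Over all 9838 genes tested, edgeR called 1 gene at an adjusted p under 0.05, the uncharacterised 1700003M07Rik, which was higher in Smarca4cKO. That is 0.0102% of the genes, while 348 higher and 597 lower genes had an unadjusted p under 0.05. DESeq2 on the same counts called 193 higher and 450 lower. With 1 library left out, edgeR called 0 higher and 5 lower genes without Smarca4cKO library 1, 1 higher and 3 lower without Smarca4cKO library 2, and 0 in either direction without any of the other 5. The common dispersion, the squared coefficient of variation between replicates that edgeR estimates, was 1.1 over all tested genes. It was 0.23 over the 6520 genes that had at least 10 counts in every one of the 7 libraries. In the fit of these detected genes, 10 were higher (0.153%) and 14 lower (0.215%) in Smarca4cKO. The groups did not overlap for any of the 24, against 7.38% higher and 6.4% lower without overlap among all detected genes. As the 24 were chosen for their difference in these same libraries, this lack of overlap is no separate support. Genes that fell to near 0 are removed by this minimum and are given apart below. The 24 had adjusted p-values of 0.0312 to 0.194 in the fit of all genes, and DESeq2 called each of them. They were named after their values were seen, since the naming rule applies to the fit of all genes. Just outside the threshold lay Itm2c, which encodes an integral membrane protein, and Smarca4, both at 0.0561, and just inside lay Baalc at 0.0459.

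**Figure D2:**
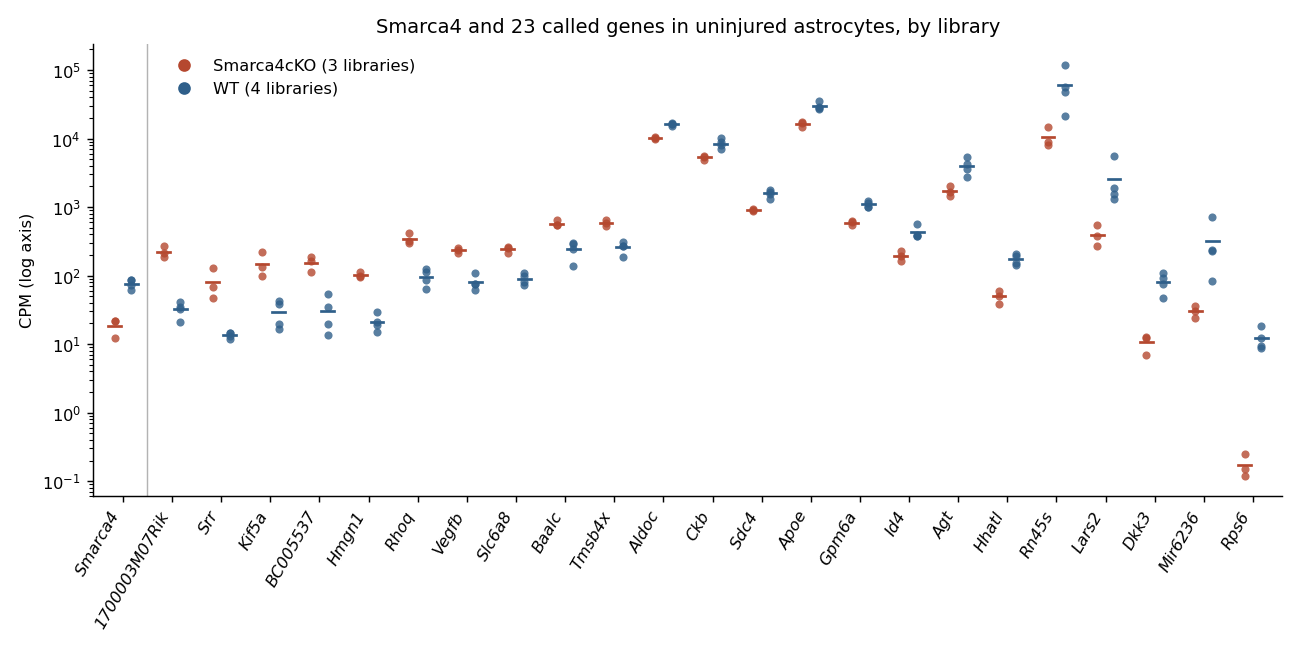
Level of Smarca4 and of 23 of the 24 called genes in each uninjured library, in CPM on a log axis, with Smarca4cKO to the left of WT for each gene; points are libraries and bars are group means. Groups do not overlap for any gene shown, and Rps6 is the single gene with Smarca4cKO libraries below 1 CPM.

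The genes that were higher in Smarca4cKO have varied roles. Rhoq (chromosome 17, 86963111 to 87000069), a small GTPase known from insulin-stimulated glucose transport, was at 318, 412 and 299 CPM in Smarca4cKO, against 64.3, 87.4, 123 and 112 CPM in WT. All 3 Smarca4cKO libraries lay above the highest WT library (log2 1.78 ± 0.26, edgeR adjusted p = 0.00719), and the call held without any 1 library. Kif5a, a kinesin heavy chain that moves cargo along microtubules, was at 218, 132 and 99.2 CPM in Smarca4cKO, against 19.98, 16.4, 38.3 and 42.4 CPM in WT (log2 2.32 ± 0.43). Tmsb4x, which encodes an actin monomer binding thymosin, averaged 586 ± 58.0 CPM in Smarca4cKO and 259 ± 52.5 CPM in WT (log2 1.14 ± 0.21). Slc6a8, the creatine transporter, was at 215, 254 and 265 CPM in Smarca4cKO, against 74.0, 97.2, 108 and 80.5 CPM in WT (log2 1.41 ± 0.25).

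Vegfb, a ligand of the vascular endothelial growth factor family, was at 235, 212 and 252 CPM in Smarca4cKO, against 75.8, 108, 62.1 and 76.7 CPM in WT (log2 1.5 ± 0.27). Hmgn1, a small protein that binds nucleosomes and loosens chromatin, was at 98.0, 96.1 and 112 CPM in Smarca4cKO, against 20.9, 14.8, 29.2 and 19.0 CPM in WT (log2 2.25 ± 0.41). Srr, serine racemase, which makes D-serine, varied most within its group, with 68.1, 47.3 and 129.8 CPM in Smarca4cKO, against 11.98 to 14.63 CPM in WT (log2 2.57 ± 0.48). Baalc averaged 576 ± 56.6 CPM in Smarca4cKO and 244 ± 74.2 CPM in WT, and BC005537 averaged 155 ± 36.4 and 30.3 ± 17.7 CPM. 1700003M07Rik (chromosome 4, 129960374 to 129965138) was at 269.8, 189 and 210.3 CPM in Smarca4cKO, against 21.2, 33.0, 41.5 and 34.6 CPM in WT, a log2 of 2.74 ± 0.32 with an edgeR adjusted p of 0.00161. When each library was left out in turn, Baalc lost its call in all 7 fits, and BC005537, Hmgn1, Srr and Tmsb4x kept it in 1 fit each. Kif5a, Slc6a8 and Vegfb kept it in 2 of the 7.

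Lower in Smarca4cKO were several of the most abundant astrocyte transcripts. Apoe (chromosome 7, 19696244 to 19701310), the main lipid carrier secreted by astrocytes, was at 17246, 14552 and 16729 CPM in Smarca4cKO, against 35213, 28672, 28291 and 26899.6 CPM in WT. The log2 fold change was -0.91 ± 0.12 (edgeR adjusted p = 0.00367), and the call held without any 1 library. Aldoc, the aldolase isoform of astrocytes, was at 10034, 10532 and 10376 CPM in Smarca4cKO, against 16698, 16239.5, 16172 and 15351 CPM in WT (log2 -0.68 ± 0.10). Agt, the angiotensin precursor that cord astrocytes secrete, averaged 1707 ± 278 CPM in Smarca4cKO and 4017 ± 1101 CPM in WT (log2 -1.28 ± 0.19). Ckb, brain creatine kinase, averaged 5327 ± 330.3 CPM in Smarca4cKO and 8472 ± 1319 CPM in WT (log2 -0.70 ± 0.14). Apoe, Aldoc, Agt and Ckb all lie in the top 1% of detected genes by level, where the median log2 was -0.32 over 66 genes. Of these 66 genes, 6 were called lower and 0 higher. Among the 1630 genes lowest by level the median was 0.28, so differences ran from higher to lower in Smarca4cKO with rising level. In bulk RNA, fewer cells of a type and less RNA per cell cannot be told apart.

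**Figure D3:**
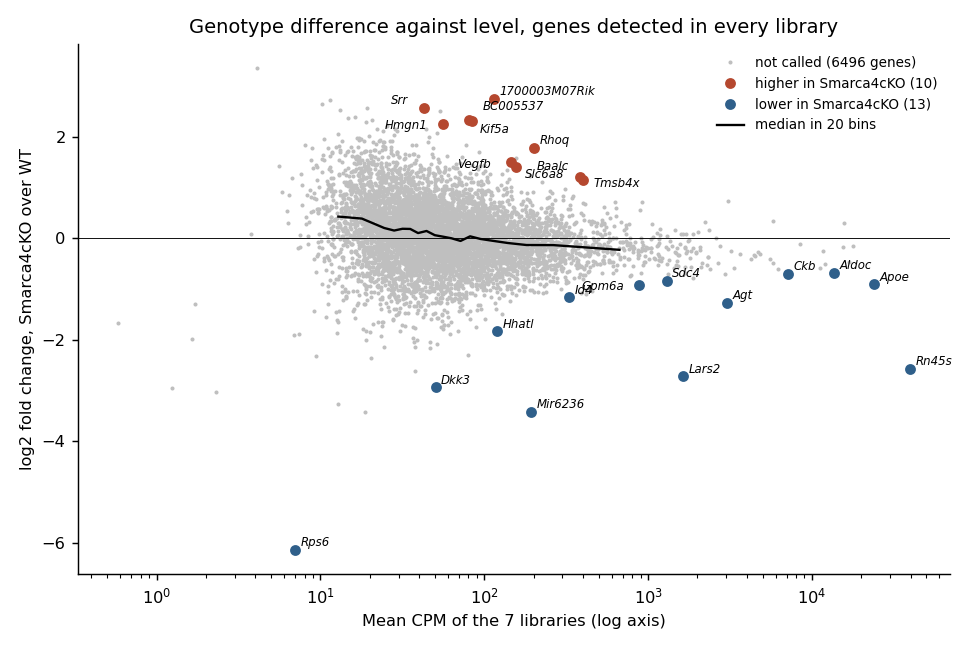
Log2 fold change of Smarca4cKO over WT against the mean CPM of the 7 libraries (log axis) for the 6520 genes detected in every library; red and blue points are the 10 higher and 13 of the 14 lower called genes, and the black line joins medians of 20 bins by level. The line lies above 0 at low levels and below 0 at high levels.

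Other genes lower in Smarca4cKO encode surface, secreted and nuclear proteins. Id4, an inhibitor of basic helix-loop-helix factors that restrains oligodendrocyte differentiation, was at 163, 195 and 231 CPM in Smarca4cKO, against 563, 382, 383 and 392 CPM in WT (log2 -1.17 ± 0.23). Gpm6a, a membrane glycoprotein of the proteolipid family, averaged 595 ± 36.2 CPM in Smarca4cKO and 1099 ± 123 CPM in WT. Sdc4, the heparan sulfate proteoglycan syndecan 4, averaged 909 ± 25.3 CPM in Smarca4cKO and 1594 ± 198 CPM in WT. Dkk3, a secreted protein of the Dickkopf family, was at 12.6, 6.87 and 12.4 CPM in Smarca4cKO, against 91.3, 108, 46.9 and 75.1 CPM in WT (log2 -2.94 ± 0.50). Hhatl averaged 49.6 ± 11.03 CPM in Smarca4cKO and 173 ± 31.9 CPM in WT (log2 -1.83 ± 0.31). Without 1 library at a time, Agt kept its call in 6 of 7 fits, Aldoc in 5, Hhatl in 4, Dkk3 in 3, Ckb, Gpm6a and Sdc4 in 1 each, and Id4 in 0.

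The remaining lower genes are less certain as astrocyte measurements. Rn45s, the ribosomal RNA precursor, took 0.873% to 1.59% of counts in Smarca4cKO and 1.99% to 10.8% in WT. Mir6236 and Lars2 moved with it, with 24.2 to 36.0 CPM in Smarca4cKO and 83.4 to 714 CPM in WT for Mir6236, and 274 to 542 CPM in Smarca4cKO and 1326 to 5519.7 CPM in WT for Lars2, a mitochondrial leucyl-tRNA synthetase. With these 3 genes left out, 10 higher and 16 lower genes were called. Rps6, a protein of the small ribosomal subunit, had 23, 11 and 10 counts in Smarca4cKO, at the edge of the minimum, and 1018, 1040, 480 and 696 in WT. Ribosomal protein genes have near-identical copies, so its value is uncertain.

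Promoter windows from RefSeq (GRCm38.p6; 250 bases before to 50 after a gene's start) were matched by symbol for 15 of the 24 called genes, and 4 windows of genes with a single listed start are shown to set out how unlike these promoters are. Capitals mark the GC box, whose letters are GGGCGG, the TATA box, read as TATAAA, and the CCAAT box, each on either strand. The windows of Hmgn1 (chr16:96127676-96127975, minus strand) and Rhoq (chr17:86962861-86963160, plus strand) belong to genes that were higher in Smarca4cKO, and those of Agt (chr8:124569657-124569956, minus strand) and Id4 (chr13:48260866-48261165, plus strand) to genes that were lower.
Hmgn1: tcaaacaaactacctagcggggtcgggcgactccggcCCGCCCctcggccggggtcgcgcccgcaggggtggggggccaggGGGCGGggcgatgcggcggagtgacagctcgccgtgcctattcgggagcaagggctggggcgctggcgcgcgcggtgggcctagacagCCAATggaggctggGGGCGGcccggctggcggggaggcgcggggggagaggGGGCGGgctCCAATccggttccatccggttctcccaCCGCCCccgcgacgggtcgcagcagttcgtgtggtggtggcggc
Rhoq: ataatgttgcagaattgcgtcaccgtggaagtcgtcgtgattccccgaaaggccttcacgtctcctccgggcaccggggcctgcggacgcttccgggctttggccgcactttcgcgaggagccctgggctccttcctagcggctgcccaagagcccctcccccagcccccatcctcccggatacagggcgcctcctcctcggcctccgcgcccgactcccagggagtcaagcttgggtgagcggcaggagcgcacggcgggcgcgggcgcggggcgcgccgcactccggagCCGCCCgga
Agt: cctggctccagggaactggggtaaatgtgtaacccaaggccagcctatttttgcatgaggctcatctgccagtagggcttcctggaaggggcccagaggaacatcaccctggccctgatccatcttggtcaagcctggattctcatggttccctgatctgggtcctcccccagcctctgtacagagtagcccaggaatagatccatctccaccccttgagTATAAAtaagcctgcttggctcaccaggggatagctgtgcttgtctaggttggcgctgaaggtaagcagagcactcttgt
Id4: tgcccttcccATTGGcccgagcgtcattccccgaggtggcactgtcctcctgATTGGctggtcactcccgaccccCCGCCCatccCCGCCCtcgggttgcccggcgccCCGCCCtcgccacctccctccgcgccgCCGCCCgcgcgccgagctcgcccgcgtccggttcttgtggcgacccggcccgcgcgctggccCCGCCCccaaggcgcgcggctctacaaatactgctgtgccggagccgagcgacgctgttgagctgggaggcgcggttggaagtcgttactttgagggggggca

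The higher genes Hmgn1, Rhoq, Srr, Vegfb and Tmsb4x had 37, 35, 33, 31 and 20 CG dinucleotides in their windows, against a median of 21 over the 6620 windows of detected genes. Among the lower genes, Agt had 1, and the windows of Aldoc, Apoe, Gpm6a and Hhatl had 3 to 12, whereas Id4 had 39 and Rps6, Ckb, Sdc4 and Lars2 had 18 to 23. A TATA box was found in 6.4% of the 6620 windows and in 4 of the 20 windows of called genes, which belong to Agt, Apoe, Ckb and Gpm6a. A GC box was found in 64.8% and in 10 of 20, and a CCAAT box in 37.3% and in 3 of 20. Neither CACGTG (E-box, 10.7% of windows) nor TGANTCA (AP-1 site, 4.38%) was found in the 20. Several windows belong to the same gene, and a match of letters is a description of the sequence.

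Genes of resting astrocytes had a median below 0, and few of them passed the test. Of 35 homeostatic genes, all detected in every library, 0 were called higher and 3 lower: Apoe, Aldoc and Id4. The groups did not overlap, in the lower direction, for 12 of the 35, against 6.4% of all detected genes, and in the higher direction for 1, against 7.38%. The median log2 of the list was -0.27, against 0.04 over all detected genes. The list holds abundant genes, so the drift of the median with level given above touches it too, and its part in the list was not tested. Gja1, the gap junction protein connexin 43, was at 1999.6, 1801 and 1838 CPM in Smarca4cKO, against 2547, 2696, 2861 and 3047 CPM in WT (log2 -0.60 ± 0.14, edgeR adjusted p = 0.0888). Sox9, a transcription factor of astrocyte identity, averaged 205 ± 11.8 CPM in Smarca4cKO and 322 ± 47.7 CPM in WT (edgeR adjusted p = 0.196), and the folate enzyme gene Aldh1l1 353 ± 51.4 and 508 ± 73.0 CPM (adjusted p = 0.25). Kcnj10, the Kir4.1 potassium channel, went the other way, with 6508 to 6834 CPM in Smarca4cKO and 4425 to 5585 CPM in WT (log2 0.34 ± 0.12, edgeR adjusted p = 0.249). The summed level of 13 astrocyte identity markers was 56310 to 57190 CPM in Smarca4cKO and 67040 to 82760 CPM in WT. All 13 were detected in every library, so both groups carry the markers of the labelled cell type.

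Not every transporter or channel gene of this kind separated the genotypes. The glutamate transporter gene Slc1a2 averaged 10586 ± 1221 CPM in Smarca4cKO and 12432 ± 1882 CPM in WT, with overlapping groups (log2 -0.26 ± 0.13). Slc1a3, the second glutamate transporter, averaged 644 ± 113 and 928 ± 282 CPM, and the water channel gene Aqp4 2921 ± 72.6 and 3421 ± 822 CPM, both with overlap. Slc12a2, the sodium, potassium and chloride cotransporter NKCC1, was at 36.3, 24.9 and 25.03 CPM in Smarca4cKO, against 77.3, 77.4, 105 and 94.98 CPM in WT (log2 -1.66 ± 0.40, edgeR adjusted p = 0.0946). Adora1, the adenosine A1 receptor, averaged 515 ± 55.7 CPM in Smarca4cKO and 310.4 ± 37.9 CPM in WT (log2 0.69 ± 0.19, edgeR adjusted p = 0.154). Its list of receptor genes had 0 of 22 detected members called by edgeR, with 4 higher and 4 lower at an unadjusted p under 0.05, and 2 higher and 1 lower called by DESeq2. Without overlap were 9.09% of them in the higher and 13.6% in the lower direction, against 7.38% and 6.4% of all detected genes, which is no result about the list.

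Genes of energy metabolism had medians below 0. Of 17 detected glycolysis genes 0 were called higher and 1 lower, Aldoc, with a median log2 of -0.38. Their groups did not overlap for 7 lower (41.2%) and 1 higher (5.88%), against 6.4% and 7.38% of all detected genes. Lactate dehydrogenase B (Ldhb) averaged 936 ± 29.97 CPM in Smarca4cKO and 1316 ± 77.0 CPM in WT (log2 -0.53 ± 0.15, edgeR adjusted p = 0.16). Pfkfb3, which makes the activator of phosphofructokinase, was the member without overlap in the higher direction, at 251 ± 45.2 CPM in Smarca4cKO and 132 ± 35.3 CPM in WT. Of 31 detected oxidative phosphorylation genes edgeR called 0, with 2 higher and 6 lower at an unadjusted p under 0.05, and DESeq2 called 1 higher and 0 lower. Without overlap were 16.1% in the lower and 3.23% in the higher direction, and the median was -0.26. Of 29 detected sterol and fatty acid synthesis genes edgeR called 0 (0 higher and 3 lower at an unadjusted p under 0.05), and DESeq2 called 1 lower. With 6.9% higher and 10.3% lower without overlap and a median of 0.08, they lay near the shares of all detected genes. Both metabolic lists with low medians hold abundant genes, and the drift of the median with level given above applies to them; its part in the lists was not tested.

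**Figure D4:**
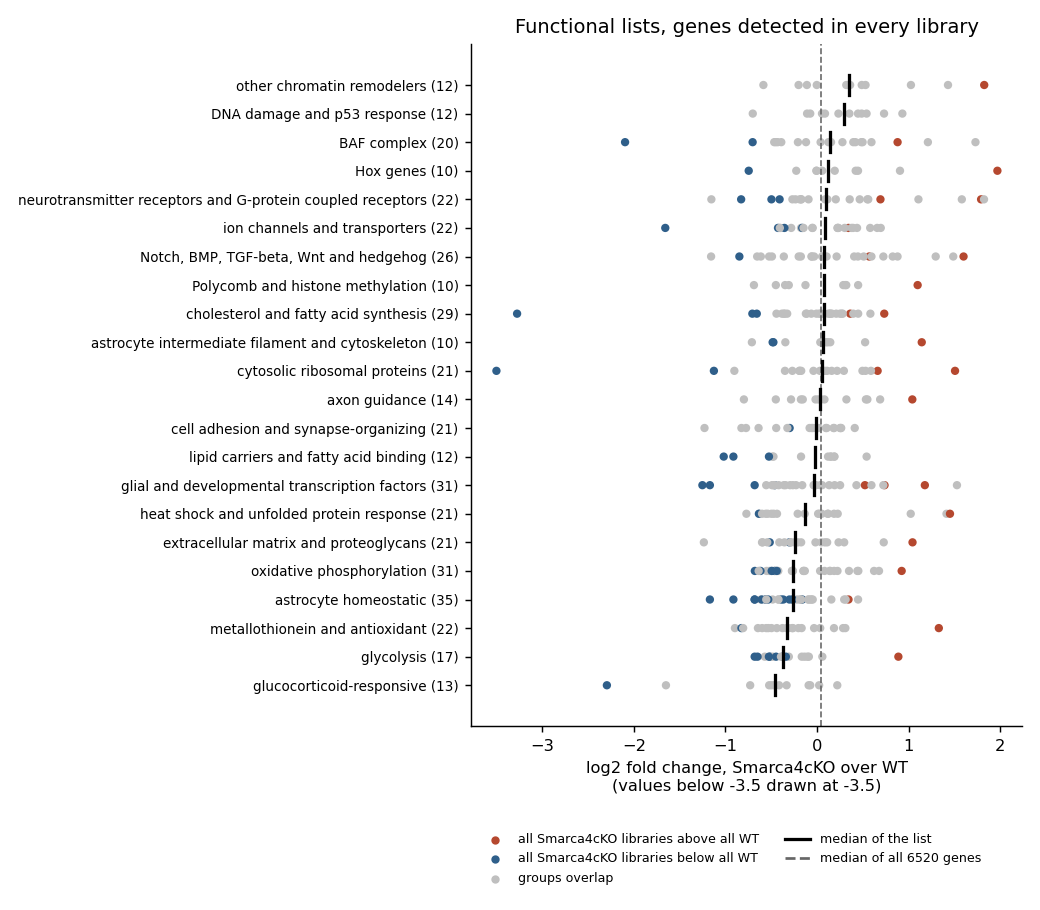
Log2 fold change of Smarca4cKO over WT for the members of functional lists with at least 10 detected genes (numbers in brackets); red and blue points are genes whose groups do not overlap, black bars are list medians and the dashed line is the median of all 6520 genes. Glycolysis, oxidative phosphorylation and astrocyte homeostatic genes have medians of -0.38, -0.26 and -0.27, and 7, 5 and 12 blue points.

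Among 31 detected glial and developmental transcription factors, 1 was called (Id4) and the median log2 was -0.04. Without overlap were 9.68% in the higher and 12.9% in the lower direction, against 7.38% and 6.4% of all detected genes, and nothing is read from these shares about the list. Olig2, a factor of the oligodendrocyte lineage also found in some astrocytes, was at 241, 206 and 228 CPM in Smarca4cKO, against 148, 88.1, 125 and 165 CPM in WT (log2 0.74 ± 0.26, edgeR adjusted p = 0.261). Id1, a target of BMP signalling, was at 19.7 to 28.1 CPM in Smarca4cKO and 46.9 to 69.3 CPM in WT (log2 -1.25 ± 0.45, edgeR adjusted p = 0.261). The summed level of oligodendrocyte progenitor markers, which include Olig2, was 836 to 944.5 CPM in Smarca4cKO and 565 to 944 CPM in WT. Of 10 detected Hox genes, which record position along the body axis, edgeR and DESeq2 called 0 and 2 were higher at an unadjusted p under 0.05. Their groups did not overlap for 1 in each direction, with Hoxb9 higher (18.8 to 46.5 CPM in Smarca4cKO and 3.78 to 13.7 CPM in WT) and Hoxc9 lower without overlap. Mcm3, a replication licensing gene, was at 22.9, 24.5 and 19.3 CPM in Smarca4cKO, against 5.26, 1.94, 2.49 and 3.495 CPM in WT (log2 2.71 ± 0.67, edgeR adjusted p = 0.114), while 8 detected cell cycle genes had a median of -0.48.

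Of 6 detected pan-reactive astrocyte genes edgeR called 0, with 1 higher and 1 lower at an unadjusted p under 0.05, DESeq2 called 1 higher, and their median log2 was -0.06. Gfap, which encodes an intermediate filament, had values of 13749.8, 13731 and 14225 CPM in Smarca4cKO, against 16960.1, 22974, 16953 and 18633 CPM in WT (log2 -0.48 ± 0.12, edgeR adjusted p = 0.111). Serpina3n, a serine protease inhibitor, was at 236, 304 and 308 CPM in Smarca4cKO, against 51.9, 191, 139 and 93.3 CPM in WT (log2 1.22 ± 0.34, edgeR adjusted p = 0.153). Groups overlapped for the filament gene Vim (290.4 ± 64.9 CPM in Smarca4cKO and 260.1 ± 88.9 CPM in WT), complement C3 (448 ± 48.8 and 588 ± 236 CPM) and Stat3 (93.8 ± 39.7 and 122 ± 27.4 CPM). Lcn2, a lipocalin that marks strong reactivity, had 14, 21 and 17 counts in Smarca4cKO and 11, 12, 4 and 13 in WT. Nnt, a mitochondrial transhydrogenase gene that is defective in some C57BL/6 substrains, averaged 45.6 ± 23.4 CPM in Smarca4cKO and 70.4 ± 33.4 CPM in WT, with overlap. Immediate early and AP-1 genes had 4 of the 12 genes listed for both genotypes detected in every library, with 0 called by edgeR or DESeq2, 0 at an unadjusted p under 0.05 and a median of -0.42.

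Genes near 0 in all 3 Smarca4cKO libraries, with at most 10 counts in each, but not in all WT libraries numbered 304, which is 3.06% of the 9948 genes. The reverse held for 5 genes (0.0503%). In 155 of the 304, all 4 WT libraries were above 10 counts. Gpx8, a glutathione peroxidase of the endoplasmic reticulum, had 0 counts in every Smarca4cKO library and 2057, 1736, 1814 and 1939 in WT, at least 2300-fold lower against a floor of 3 counts over the group. Sp4, a zinc finger transcription factor gene, had 0 in every Smarca4cKO library and 879, 3264, 421 and 1759 in WT, at least 1930-fold lower. Hspg2, the basement membrane proteoglycan perlecan, had 1, 0 and 0 counts in Smarca4cKO and 634, 2060, 1165 and 2214 in WT, a ratio of 0.00018 (95% exact counting interval 4.55e-06 to 0.001). Tgfbr1, a receptor of TGF-beta, had 0 counts in every Smarca4cKO library and 560, 1436, 35 and 519 in WT. Bounds and intervals cover counting error alone.

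Of the 304, 231 passed the filter of the edgeR fit of all genes, which called 0 of them, with 229 at an unadjusted p under 0.05. DESeq2 called 228 of the 231. Counting genes near 0 in either genotype, edgeR called 123 with the uninjured Stat3cKO libraries added and 225 with challenged libraries added. Of the 304, 303 had more than 10 counts in every one of the 4 Smarca4cKO libraries taken 14 days after crush injury of the cord, which the authors list in the same table as the uninjured Smarca4cKO libraries. For Smarca4cKO mice after LPS the authors list 45 of the 304, and 43 of these had more than 10 counts in each of the 3 libraries. The rest of the 304 have no value after LPS. Gpx8, which is listed, had 2280, 2073 and 2176 counts in these LPS libraries. The rule by which the table with the injured libraries lists genes is not given in the sources used here. A gene at 0 in all uninjured Smarca4cKO libraries can be listed there through its counts after injury. Of 6 tested ependymal markers 3 were near 0 in Smarca4cKO. Another 2 were detected in every library, at log2 -0.547 and 0.0487, with 0 called. The list summed to 115.5, 184.1 and 19.96 CPM in Smarca4cKO and 89.39 to 240.2 CPM in WT, with overlap. Rarres2 had 1, 0 and 4 counts in Smarca4cKO and 2772, 1463, 1502 and 1730 in WT, and Tekt1 and Dynlrb2, genes of motile cilia, had 0 in every Smarca4cKO library. Foxj1, which defines ciliated ependymal cells, had 7953, 8042 and 761 counts in Smarca4cKO and 7323, 2626, 5039 and 9818 in WT.

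Among markers of other cells that could reach the pulldown, those of Schwann cells had 0 called higher and 1 lower of 5 detected. Of all detected genes 0.153% were called higher and 0.215% lower. The Schwann cell list had a median log2 of -1.03, against 0.04 over all detected genes, and its part in the results above was not tested. The summed level of the Schwann cell list was lower in all 3 Smarca4cKO libraries than in any WT library. That sum includes the called member, which was chosen for its difference in these same libraries, so it is no separate support. Of the 5 detected members, the called one alone had groups that did not overlap. The groups overlapped in the summed levels of the other lists given here. The sums were 6935 to 14050 CPM in Smarca4cKO and 7015 to 12240 CPM in WT for oligodendrocytes, 1030 to 1131 and 813 to 1038 CPM for neurons, and 173 to 421 and 119 to 273 CPM for microglia. Fibroblast and meningeal markers summed to 678 to 876 CPM in Smarca4cKO and 725 to 1264 CPM in WT. Of the monocyte and macrophage list 3 of 11 genes were listed for both genotypes, of the endothelial list 1 of 12, and of the neutrophil, lymphocyte and erythrocyte lists none. In the monocyte list Cd68 had 0, 1644 and 0 counts in Smarca4cKO and 257, 421, 187 and 229 in WT.

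The genotypes were measured again in mice given LPS, which share no library with the uninjured groups but share the strain difference. Over 7916 tested genes edgeR called 0, with 190 higher and 118 lower at an unadjusted p under 0.05 (3.89% in all), and DESeq2 called 10 higher and 24 lower. Without Smarca4cKO LPS library 3, edgeR called 276 lower and 5 higher. Smarca4 had 1, 3664 and 651 counts in Smarca4cKO LPS libraries and 7759, 4731, 5653 and 7256 in WT LPS libraries, so Smarca4cKO LPS library 2, at 48 CPM, came near the lowest WT library at 65.7 CPM. Of the 10 genes higher without Smarca4 in uninjured mice 9 pointed the same way after LPS, and of the 14 lower genes 13 did, where 50.6% of all tested genes pointed higher. Unadjusted p-values were under 0.05 for 8 of the 24. Groups were apart in the same direction for 2 of the 24, where 4.13% of all tested genes were apart in the higher and 4.24% in the lower direction. Among the 2 was Baalc, with 332 to 648 CPM in Smarca4cKO and 171 to 324 CPM in WT. Agt was at 3270, 3030 and 2990 CPM in Smarca4cKO and 5490, 4960, 5360 and 3090 CPM in WT (log2 -0.61 ± 0.21), and Apoe had a log2 of -0.39 ± 0.15. The genotype difference of Rhoq was 0.14 ± 0.29 after LPS and that of Slc6a8 0.01 ± 0.22.

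For some genes the genotype difference itself changed. In a fit of the 4 groups, the difference after LPS minus that in uninjured mice was called for 25 of 7919 genes (0.316%). Among the 24 genes it was called for 1700003M07Rik (log2 -2.38, edgeR adjusted p = 0.0258) and Kif5a (-2.88, adjusted p = 0.0458), 2 that had been chosen for their difference in the same uninjured libraries. Kif5a was at 96.7, 60.5 and 139 CPM in Smarca4cKO LPS libraries and 156, 125, 154 and 139 CPM in WT LPS libraries.

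Levels in all 7 groups, on 1 scale over the 7834 genes that every table lists, set the uninjured values in context. Rhoq averaged 345 ± 54.2 CPM in uninjured Smarca4cKO mice and 99.4 to 120 CPM in the other 6 groups, including 112 ± 5.92 CPM in uninjured Stat3cKO mice, which lack Stat3 in the same cells and have the C57BL6 label. Vegfb averaged 235 ± 24.0 CPM in uninjured Smarca4cKO mice and 83.2 to 137 CPM elsewhere. For Hmgn1 and Slc6a8 the means after LPS lay near that of uninjured Smarca4cKO mice in all 3 genotypes. Hmgn1 averaged 97.2 ± 8.22 CPM in Smarca4cKO, 87.3 ± 21.3 in Stat3cKO and 91.3 ± 41.6 in WT after LPS, and 103 ± 9.79, 22.2 ± 3.07 and 21.6 ± 6.12 CPM in uninjured mice of the same genotypes. Slc6a8 averaged 234 ± 49.5, 219 ± 17.4 and 232 ± 29.4 CPM in Smarca4cKO, Stat3cKO and WT after LPS, and 247 ± 24.2, 81.4 ± 4.49 and 92.8 ± 15.4 CPM in uninjured mice in that order. In Smarca4cKO mice after cord injury, Hmgn1 averaged 82 ± 10.5 CPM and Slc6a8 374 ± 71.7 CPM. Uninjured WT and Stat3cKO mice, the groups with low levels of both genes, also have lower animal numbers than all other groups. Kif5a, Tmsb4x, BC005537 and Srr likewise had lower means in these groups than in every other group. Among the lower genes, Apoe, Aldoc, Ckb, Gpm6a and Hhatl had higher means there than in every other group. Rhoq, Vegfb, 1700003M07Rik, Baalc, Agt, Dkk3, Id4 and Sdc4 did not split in this way. The part of this numbering in the levels was not tested.

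For Kif5a and Tmsb4x the means of the challenged groups were farther apart. Kif5a averaged 76.7 ± 27.7 CPM in Smarca4cKO after cord injury, 100 ± 38.3, 161 ± 30.3 and 146 ± 16.3 CPM in Smarca4cKO, Stat3cKO and WT after LPS, and 151 ± 64.0, 40.5 ± 8.05 and 30.2 ± 13.3 CPM in uninjured Smarca4cKO, Stat3cKO and WT mice. Tmsb4x averaged 1150 ± 336 CPM in Smarca4cKO after cord injury, 1380 ± 213, 662 ± 132 and 864 ± 282 CPM in Smarca4cKO, Stat3cKO and WT after LPS, and 590 ± 46.6, 108 ± 13 and 267 ± 54.2 CPM in uninjured mice. Its uninjured Stat3cKO libraries, at 93.5 to 119 CPM, also lay below all WT libraries (190 to 317 CPM). Apoe averaged 16300 ± 1760 CPM in uninjured Smarca4cKO mice, 27800 ± 1700 CPM in uninjured Stat3cKO mice and 30800 ± 4040 CPM in uninjured WT mice. Aldoc averaged 10400 ± 115, 15000 ± 1050 and 16600 ± 641 CPM in the same 3 groups, and 4560 ± 1280 CPM in Smarca4cKO mice after cord injury. These levels are a description: comparisons that share the uninjured libraries are not independent, and no test was made between them.

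**Figure D5:**
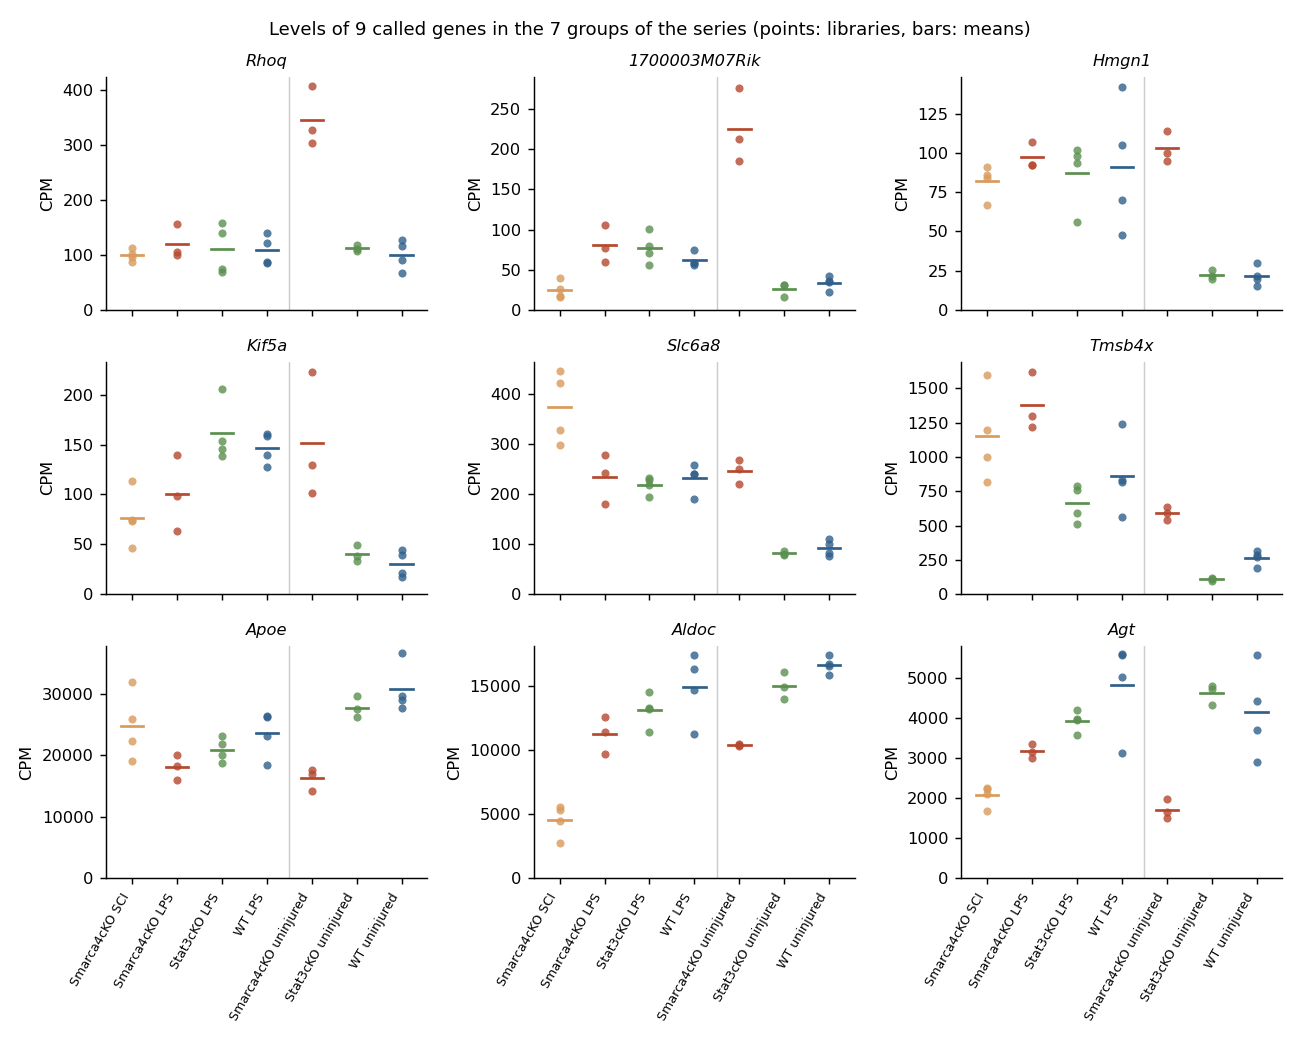
Level of 9 called genes in CPM in the 7 groups, with challenged groups left of uninjured ones; points are libraries and bars are means. Rhoq and 1700003M07Rik are above 158 and 106 CPM in uninjured Smarca4cKO libraries alone, whereas in LPS libraries of all 3 genotypes Hmgn1 lies at 47.4 to 142 CPM, Kif5a at 63 to 206 CPM and Slc6a8 at 181 to 279 CPM.

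Genes near Smarca4 were looked at because the strain label differs and a floxed allele can carry flanking sequence from another strain. Within 10 Mb on either side on chromosome 9, 69 genes were tested and 45 were detected in every library, with 0 called. Of all detected genes 0.153% were called higher and 0.215% lower, so 0 of 45 is no result about these genes. The groups did not overlap for 1 higher gene, Atg4d, an autophagy protease gene, and 1 lower gene, Raver1, an RNA-binding protein gene. That is 2.22% each, against 7.38% higher and 6.4% lower of all detected genes. The median log2 of the 45 was 0.13, and the median absolute log2 was 0.28, against 0.41 over all detected genes.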

How the data were processed

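RNA on haemagglutinin-tagged ribosomes was sequenced from 25 mice, 7 of which form the uninjured comparison. The deposited values are raw counts per gene; reads were aligned to mm10 with STAR 2.4.0j and counted with HTSeq 0.6.0, per the submitters' processing notes, which also name edgeR 3.28.0. Each of the authors' tables lists its own genes by a filter not given in the sources used here. The uninjured Smarca4cKO and WT libraries lie in separate tables of 11115 and 10568 genes, which were joined on the 9948 shared symbols and scaled together by TMM.

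Genes were tested with edgeR 4.0.16 (filterByExpr, quasi-likelihood, Benjamini-Hochberg, adjusted p under 0.05) in R 4.3.3, with genotype as the single term. DESeq2 1.42.0, other scalings and leaving out each library were further alternatives, and leaving out Rn45s, Mir6236 and Lars2 was added after seeing the data. A further alternative kept genes with at least 10 counts in all 7 libraries. The naming rule took the largest called changes and lowest adjusted p-values in the fit of all genes, called members of each list, the most abundant marker of each cell type and 15 genes given in every case (Smarca4, Smarca2, Stat3, Gfap and other astrocyte genes). As that fit called 1 gene, the genes called in the alternative, the genes near 0 and the uncalled list members shown as examples were named after their values were seen. Members and gene lists were chosen with earlier results of these data known. Groups that do not overlap are those where every library of one lies above every library of the other. Intervals and floors cover counting error only. The tests were checked on simulated counts of genes detected in every library, drawn with less spread between replicates than the real libraries had. That check does not cover the all-or-none counts or the fit of all genes. A called gene is not reported here.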

Additional observations from a re-analysis of the deposited data

Results flagged for a closer look

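Among the 39 named genes that were checked, 3 had a WT library far from the other 3 in its group by Dixon's criterion. Chance alone meets this criterion in about 1 in 20 groups. Id4 was at 563 CPM in WT library 1, against 382 to 392 CPM in the others. Lars2 was at 5520 CPM in WT library 1, against 1330 to 1880 CPM, and that library also had the highest share of Rn45s, 10.8% of counts. Vim was at 392 CPM in WT library 2, against 204 to 231 CPM. For 2 genes the difference between genotypes after LPS was not the same as in uninjured mice by a test of that difference. It was lower by log2 -2.38 for 1700003M07Rik and by log2 -2.88 for Kif5a.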

How the results depend on the processing

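Over all tested genes, 1 higher and 0 lower were called. Upper quartile factors gave 0 and 0, as did an adjusted p under 0.01. DESeq2 gave 193 and 450, a minimum of 10 counts in every library 10 and 14, adding the uninjured Stat3cKO libraries 42 and 191, and adding challenged libraries 75 and 320. The log2 fold change of Smarca4, uninjured Smarca4cKO over WT, passed the test in DESeq2 (-2.01) and with Stat3cKO (-2.06) or challenged libraries (-2.08) added. Leaving out 1 library gave 0 to 1 higher and 0 to 5 lower; 1 higher gene was called without Smarca4cKO library 2 and 0 in the other 6 fits, and lower genes were called without Smarca4cKO library 1 (5) or 2 (3). Over the genes detected in every library, against 10 higher and 14 lower, DESeq2 gave 87 and 102, a minimum of 100 counts 16 and 23, upper quartile factors 10 and 21, and an adjusted p under 0.01 gave 2 and 8. Leaving out 1 library gave 2 to 10 higher and 7 to 15 lower, with 2 and 7 without Smarca4cKO library 1, 2 and 9 without WT library 1 or 4, 3 and 9 without WT library 3, 5 higher without WT library 2 and 3 higher without Smarca4cKO library 3. After LPS, DESeq2 gave 10 and 24, and leaving out 1 library 0 to 5 higher and 0 to 276 lower. Vim, not called, ranged from log2 -0.0339 (without Smarca4cKO library 2) to 0.426. A limit of 30 counts in place of 10 gave 329 genes near 0, against 304. The cause of these changes was not tested, apart from fewer genes or samples where the setting removes them. No paired analysis was possible because library names give each animal its own number, shared by no other group.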
